A study of Mus musculus with 20 samples.

Results

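The genes described are 8 in which inherited variants raise the risk of amyotrophic lateral sclerosis (ALS) in people and whose products act in the cytoskeleton, in axonal transport, at membrane contacts or in the handling of oxidative and DNA damage. They are Kif5a, Dctn1, Tuba4a, Pfn1, Vapb, Sod1, Nek1 and Spg11, chosen by name as 8 of the 25965 rows of the deposited count table. The choice was made with earlier results of these data known. All 8 passed the filter on low counts, as did 16690 rows in all. Their RNA was measured in the frontal cortex of C57BL/6 mice at 5 months of age that carried a Q331K change in the Tardbp gene, which codes for TDP-43, a protein that binds RNA. The allele was a knock-in, so the change sits in the animal's own Tardbp gene. There were 8 homozygous libraries (Q331K/Q331K), 6 heterozygous libraries (Q331K/+) and 6 wild-type libraries (+/+). Libraries held 69312426 to 105412832 counts in homozygotes, 61282647 to 111440766 in heterozygotes and 75168829 to 96821696 in wild type. The labels do not say whether each library came from a separate animal, so a p-value here speaks of the spread among the libraries, which may be technical.

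TDP-43 binds RNA at UG-rich stretches and takes part in splicing and in RNA stability, and it leaves the nucleus and aggregates in motor neurons of most people with ALS. Long axons depend on microtubule tracks, on kinesins that move cargo outward and on dynein with its cofactor dynactin that move it back. The ALS risk genes here touch each of these steps. Kif5a codes for a neuronal kinesin-1 heavy chain, Dctn1 for the large dynactin subunit that binds microtubules, Tuba4a for an alpha-tubulin and Pfn1 for profilin 1, which feeds actin monomers to growing filaments. Vapb codes for a tether of the endoplasmic reticulum to other organelles, Sod1 for the cytosolic copper and zinc superoxide dismutase, Nek1 for a kinase of cilia and the DNA damage response, and Spg11 for spatacsin, which acts in lysosome recycling. All are expressed well beyond motor neurons. The tissue held cortical markers, with Slc17a7 of excitatory neurons at 1296 to 1493 CPM (counts scaled to library size) and Mbp of myelin at 1369 to 2516 CPM. Markers of cholinergic motor neurons lay near 0, with Chat at 0.256 to 1.14 CPM and Mnx1 at 0 to 0.00964 CPM. They do not report on the motor neurons of the cortex, which are not cholinergic.

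Because TDP-43 binds UG repeats, the longest TG run in the representative transcript of 4 of these genes is shown, with the run in capitals. Vapb and Nek1 are given as the genes called lower in homozygotes, and Kif5a and Pfn1 as genes not called. Each window is 30 bases, read 5′ to 3′ on the transcript strand.
Vapb, 3′ UTR, chr2:173781141-173781170, plus strand: ccgagtgtgcaTGTGTGTGTttgtgtgtag
Nek1, coding, chr8:61104183-61104212, plus strand: tgttcttaatgaTGTGTGgactagagagaa
Kif5a, 3′ UTR, chr10:127227477-127227506, minus strand: ccatattgggcTGTGTGTGcttcccactcc
Pfn1, 3′ UTR, chr11:70651928-70651957, minus strand: ataccccctccTGTGTGTGTttggaaaatt
Positions are in GRCm38 and the sequences come from GENCODE M21. The motif TGTGTG, with overlapping matches counted and the transcript strand alone searched, occurred 15 times in the Vapb transcript, or 2.13 times per kb. It occurred 1 time in that of Nek1 (0.196 per kb), 4 times in that of Kif5a (0.635 per kb), 2 times in that of Pfn1 (2.32 per kb) and 2 times in that of Tuba4a (0.704 per kb). The Dctn1 transcript held 0 matches, that of Sod1 held 1 (1.56 per kb) and that of Spg11 held 3 (0.391 per kb). The motif is common: 66.2% of 21815 representative transcripts held it, at a median of 0.455 per kb. The density of Pfn1, the highest of the 8, rests on 2 overlapping matches in a transcript of 861 bases. Whether the motif bears on the calls was not tested. A match is a description of the letters and not a binding site, and introns were not searched.

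The first comparison asked how these genes stood when both Tardbp alleles carried the change. Relative to wild type, Nek1 fell by 9.40% and Vapb fell by 7.46% in homozygotes, and these were the 2 of 8 genes called at an adjusted p under 0.05 (edgeR). Of all genes tested, 1.56% were called in this comparison, 0.923% lower and 0.641% higher in homozygotes. None of the 8 was called higher. Kif5a and Tuba4a also had estimates below 0 with an unadjusted p under 0.05, which makes 4 of 8 with such a p, where 16.1% of all genes had one. All 8 estimates were negative, where 49.44% of all genes were, and the median log2 change was -0.06 over the 8 genes and 0.0013 over all genes. The signs of Spg11 (-0.00025), Dctn1 (-0.03) and Pfn1 (-0.02) are not settled, since each turned positive under at least 1 alternative or with a library left out. Homozygous and wild-type libraries overlapped for each of the 8 genes, while 0.515% of all genes had every homozygous library below every wild-type library and 0.264% had every one above. Tardbp itself was higher, at 245.5 ± 10.5 CPM over the 8 homozygous libraries, 230 ± 7.58 over the 6 heterozygous libraries and 218 ± 5.53 over the 6 wild-type libraries (SD).

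**Figure D1:**
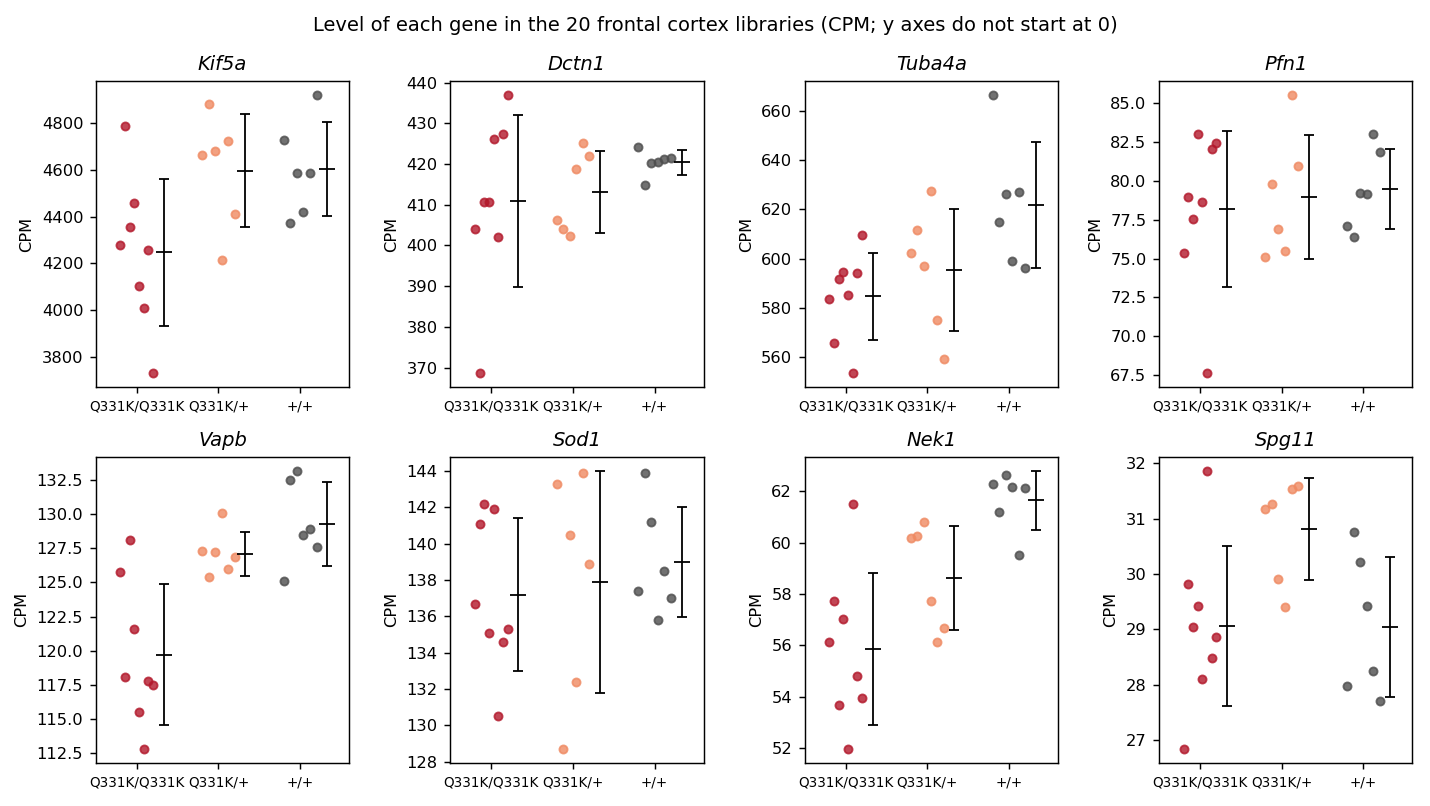
Level of each of the 8 genes in CPM (y axis, not starting at 0) in the 8 homozygous, 6 heterozygous and 6 wild-type libraries, 1 point per library, with the mean and SD beside each group. For Nek1, 7 of 8 homozygous libraries lie below the lowest wild-type library, and for Spg11 4 of 6 heterozygous libraries lie above the highest.

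Kif5a carries cargo such as neurofilaments and mitochondria along axons. It lies on chr10:127225696-127263363, minus strand (GRCm38). Its lowest, median and highest levels were 3732, 4268 and 4786 CPM in homozygotes, 4217, 4673 and 4881 CPM in heterozygotes and 4373, 4587 and 4919 CPM in wild type. Of the homozygous libraries 6 of 8 lay below the lowest wild-type library, while homozygous replicates 2 and 4 lay within the wild-type range, and heterozygotes spanned about the wild-type range. Means were 4248 ± 314 CPM over the 8 homozygous libraries, 4596 ± 240 over the 6 heterozygous libraries and 4602 ± 201 over the 6 wild-type libraries (SD). The log2 difference of homozygotes from wild type was -0.12 (95% interval -0.20 to -0.03) and was not called (edgeR adjusted p = 0.176). Among the 8 genes Kif5a had the widest spread within genotypes, with an SD of 0.0870 on the log2 CPM scale, and the median over all genes was 0.1025. The analysis was repeated without the 4 libraries whose ependymal marker score exceeded 0.5 (homozygous replicates 1, 2 and 4 and heterozygous replicate 2). The estimate was then -0.17 and was called (edgeR adjusted p = 0.0356). That step took out both homozygous replicates within the wild-type range and 0 wild-type libraries. It was the 1 of 10 alternatives to call Kif5a, and 0 of 20 fits with a library left out called it (edgeR adjusted p = 0.0556 to 0.352). With the marker scores of ependyma, olfactory bulb and meninges as covariates, the estimate was -0.15 and was not called (edgeR adjusted p = 0.104).

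Dctn1 (chr6:83165920-83200117, plus strand) was tighter in wild type than in either mutant group. Across libraries, the lowest, median and highest levels were 368.6, 410.7 and 437 CPM in homozygotes, 402.3, 412.6 and 425.2 CPM in heterozygotes and 414.9, 420.9 and 424.2 CPM in wild type. Homozygous libraries lay on both sides of the wild-type range, 5 below it and 3 above it, with 0 inside. The mean was 411 ± 21.1 CPM over the 8 homozygous libraries, 413 ± 10.1 over the 6 heterozygous libraries and 420 ± 3.06 over the 6 wild-type libraries (SD). The log2 difference of homozygotes from wild type was -0.03 (95% interval -0.10 to 0.03, edgeR adjusted p = 0.645). The difference in spread was seen in the values and was not tested.

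Among the cytoskeletal genes, Tuba4a had the larger estimate. Tuba4a lies on chr1:75214974-75219253, minus strand. Its lowest, median and highest levels were 553.3, 588.3 and 609.6 CPM in homozygotes, 559, 599.6 and 627.6 CPM in heterozygotes and 596, 620.6 and 666.6 CPM in wild type. Of the homozygous libraries 7 of 8 lay below the lowest wild-type library and 8 of 8 below the wild-type median, with heterozygotes spread across both ranges. The mean was 585 ± 17.7 CPM over the 8 homozygous libraries, 595 ± 24.9 over the 6 heterozygous libraries and 622 ± 25.6 over the 6 wild-type libraries (SD). The log2 difference of homozygotes from wild type was -0.09 (95% interval -0.15 to -0.02) and was not called (edgeR adjusted p = 0.160). Of the exon bases of Tuba4a in GENCODE M21, 37.3% are shared with Stk16 on the opposite strand. That annotation spans chr1:75214228-75219865, more than the counted row, so the share within the counted row is not known. The strand setting of the counting is not given in the sources used here. Stk16 lay between 31.2 and 37.2 CPM over the 20 libraries, far below Tuba4a.

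Pfn1 (chr11:70651850-70654644, minus strand) did not separate the genotypes. The lowest, median and highest libraries held 67.61, 78.8 and 83.02 CPM in homozygotes, 75.13, 78.36 and 85.55 CPM in heterozygotes and 76.4, 79.21 and 83 CPM in wild type. The 3 ranges overlapped over most of their length, and the low end came from homozygous replicate 6. The log2 difference of homozygotes from wild type was -0.02 (95% interval -0.10 to 0.06, edgeR adjusted p = 0.826), and heterozygotes differed from wild type by -0.0089.

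Vapb was lower in homozygotes. It lies on chr2:173737511-173784336, plus strand. Its lowest, median and highest levels were 112.8, 118 and 128.1 CPM in homozygotes, 125.4, 127 and 130.1 CPM in heterozygotes and 125.1, 128.7 and 133.2 CPM in wild type. Of the homozygous libraries 6 of 8 lay below the lowest wild-type library and 8 of 8 below the wild-type median. The heterozygous libraries lay inside the wild-type range. Means were 120 ± 5.17 CPM over the 8 homozygous libraries, 127 ± 1.64 over the 6 heterozygous libraries and 129 ± 3.06 over the 6 wild-type libraries (SD). The log2 change of homozygotes from wild type was -0.11 (SE 0.0273, 95% interval -0.17 to -0.06, edgeR adjusted p = 0.0359). In bulk tissue, fewer cells of a type and less RNA per cell cannot be told apart. The call was kept without 12 of the 20 libraries left out in turn. It was lost without wild-type replicates 2, 3, 5 and 6 (edgeR adjusted p = 0.0690, 0.0875, 0.0726 and 0.0637) and without homozygous replicates 5, 6, 7 and 8 (edgeR adjusted p = 0.0725, 0.0639, 0.0522 and 0.0607), with estimates between -0.13 and -0.10 throughout. In a fit of these genotypes alone it was lost at -0.11 (edgeR adjusted p = 0.0796).

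Sod1 (chr16:90220742-90226322, plus strand) differed between the genotypes by less than the spread within them. From lowest through median to highest, Sod1 measured 130.5, 136 and 142.2 CPM in homozygotes, 128.7, 139.7 and 143.9 CPM in heterozygotes and 135.8, 138 and 143.9 CPM in wild type. The ranges overlapped and 4 of 8 homozygous libraries lay below the lowest wild-type library. The log2 difference of homozygotes from wild type was -0.02 (95% interval -0.08 to 0.04, edgeR adjusted p = 0.797). Of the stretches of 50 bases in its representative transcript, 23.1% also occur in Gm8566. A read lying wholly within such a stretch would fit more than 1 place. How such reads were counted is not given in the sources used here.

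Nek1 had the largest estimate of the 8 in size. It lies on chr8:60993195-61131346, plus strand. Its lowest, median and highest levels were 51.98, 55.48 and 61.48 CPM in homozygotes, 56.14, 58.95 and 60.78 CPM in heterozygotes and 59.5, 62.13 and 62.64 CPM in wild type. Of the homozygous libraries 7 of 8 lay below the lowest wild-type library, the exception being homozygous replicate 6, and heterozygotes lay between, with 6 of 6 below the wild-type median and 3 of 6 below the lowest wild-type library. Means were 55.9 ± 2.95 CPM over the 8 homozygous libraries, 58.6 ± 2.03 over the 6 heterozygous libraries and 61.6 ± 1.16 over the 6 wild-type libraries (SD). The log2 change of homozygotes from wild type was -0.14 (SE 0.0324, 95% interval -0.21 to -0.08, edgeR adjusted p = 0.0254). The call was kept without 16 of the 20 libraries left out in turn. It was lost without wild-type replicates 1, 3 and 6 (edgeR adjusted p = 0.0505, 0.0576 and 0.0631) and without homozygous replicate 5 (edgeR adjusted p = 0.0537), with estimates between -0.16 and -0.13 throughout. With 3 surrogate variables it was lost at -0.13 (edgeR adjusted p = 0.176). Of its exon bases, 1.41% are shared with Gm45809 on the same strand.

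Spg11 (chr2:122053520-122118386, minus strand) was the 1 gene of the 8 with its highest mean in heterozygotes. The lowest, median and highest values were 26.84, 28.96 and 31.87 CPM in homozygotes, 29.41, 31.22 and 31.6 CPM in heterozygotes and 27.7, 28.83 and 30.76 CPM in wild type. Of the heterozygous libraries 4 of 6 lay above the highest wild-type library, while homozygotes spanned the wild-type range. Means were 29.1 ± 1.45 CPM over the 8 homozygous libraries, 30.8 ± 0.922 over the 6 heterozygous libraries and 29.1 ± 1.27 over the 6 wild-type libraries (SD). The log2 difference of homozygotes from wild type was -0.00025 (95% interval -0.07 to 0.07, edgeR adjusted p = 0.998). Of its exon bases, 13.8% are shared with Eif3j1 on the opposite strand, which ranged from 32.3 to 60.3 CPM over the 20 libraries, and 8.50% of its stretches of 50 bases also occur in Gm3650.

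Cell type markers were read in the same libraries. Of 5 markers of parvalbumin interneurons, 4 were called lower in homozygotes than in wild type (edgeR), where 0.923% of all genes were. The summed level of the 5 was 483 to 548 CPM in homozygotes, 567 to 594 CPM in heterozygotes and 564 to 649 CPM in wild type. Of 5 other GABA neuron markers 0 were called. They summed to 734.1 to 806.4 CPM in homozygotes, 762.2 to 796.3 CPM in heterozygotes and 756.1 to 808.5 CPM in wild type. The 5 excitatory neuron markers summed to 1676 to 1936 CPM in homozygotes, 1776 to 1883 CPM in heterozygotes and 1812 to 1890 CPM in wild type, with 0 called. The 10 ependymal markers, of which 9 were tested and 0 called, summed to 8.18 to 26.6 CPM in homozygotes, 8.31 to 18.5 CPM in heterozygotes and 8.21 to 10.8 CPM in wild type. The 5 olfactory bulb markers summed to 8.42 to 80.5 CPM in homozygotes, 8.75 to 13.3 CPM in heterozygotes and 8.74 to 21.9 CPM in wild type. The 6 striatal markers reached 382.8 CPM in 1 heterozygous library and lay at or below 198.6 CPM in every homozygous and wild-type library. No marker of the lists above in this paragraph was at 0 throughout a genotype. Of the cholinergic motor neuron markers, 1 was at 0 throughout heterozygotes and 1 throughout wild type. The part of the parvalbumin markers in the lower Nek1 and Vapb levels was not tested. Without the 4 libraries of high ependymal score the estimates were -0.16 for Nek1 and -0.13 for Vapb, as large as with them, and both were called (edgeR adjusted p = 0.0390 and 0.0404). With the marker scores of ependyma, olfactory bulb and meninges as covariates, the estimates were -0.13 for Nek1 and -0.13 for Vapb and neither was called (edgeR adjusted p = 0.123 and 0.0625).

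Heterozygotes were then set against wild type to see the state with 1 changed allele. None of the 8 genes was called by edgeR, DESeq2 or limma voom, and 0% of all genes were called by edgeR. At an unadjusted p under 0.05 there were 2 of the 8, where 3.19% of all genes had such a p. These were Spg11, at a log2 difference of 0.08 (95% interval 0.0059 to 0.16), and Nek1, at -0.07 (95% interval -0.14 to -0.00088), both with an edgeR adjusted p of 0.9996. Heterozygous and wild-type libraries overlapped for each of the 8 genes, where 0.108% of all genes lay wholly below and 0.0899% wholly above. The Vapb difference was -0.02 (95% interval -0.08 to 0.04) and that of Kif5a was -0.0019 (95% interval -0.10 to 0.09).

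Homozygotes against heterozygotes gave 0 of 8 called by edgeR, DESeq2 or limma voom, where 0.108% of all genes were called by edgeR, with 0.0779% lower in homozygotes. The libraries overlapped for each of the 8 genes, where 0.198% of all genes had every homozygote below every heterozygote and 0.0899% every one above. At an unadjusted p under 0.05 there were 4 of the 8, where 11% of all genes had such a p. The log2 differences were -0.09 for Vapb (edgeR adjusted p = 0.271), -0.11 for Kif5a (edgeR adjusted p = 0.346), -0.08 for Spg11 (edgeR adjusted p = 0.395) and -0.07 for Nek1 (edgeR adjusted p = 0.436). This comparison shares its homozygous libraries with that against wild type and its heterozygous libraries with the one before it, so the 3 sets of values are not independent.

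**Figure D2:**
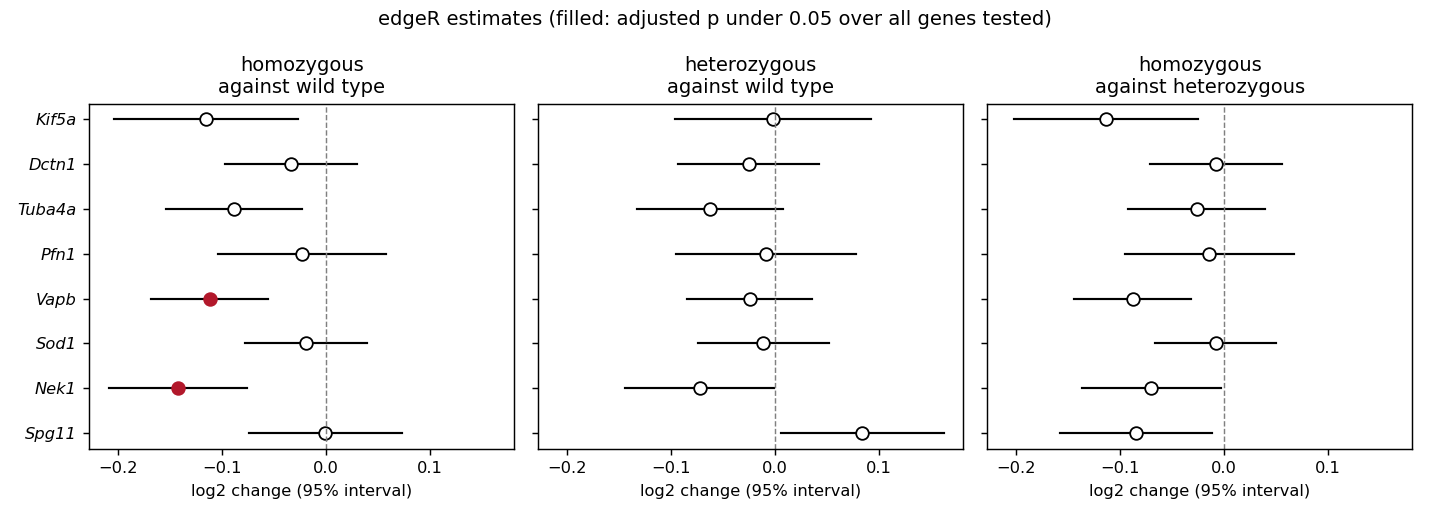
The edgeR log2 change (x axis) with its 95% interval for each of the 8 genes in the 3 pairwise comparisons, filled where the adjusted p over all genes was under 0.05. The filled points are Nek1 and Vapb in homozygous against wild type, and for Kif5a and Vapb the heterozygous estimates lie close to 0.

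With the number of Q331K alleles as a trend, the same genes were called, Nek1 at -0.07 per allele (edgeR adjusted p = 0.0202) and Vapb at -0.06 per allele (edgeR adjusted p = 0.0294). The Nek1 call was kept with each library left out in turn and lost with 3 surrogate variables (edgeR adjusted p = 0.153) and with the tissue scores (edgeR adjusted p = 0.124). That of Vapb was lost without wild-type replicates 3 and 5 (edgeR adjusted p = 0.0650 and 0.0555) and homozygous replicates 5, 6 and 8 (edgeR adjusted p = 0.0668, 0.0542 and 0.0515), without the high-ependymal libraries (edgeR adjusted p = 0.0552) and with the tissue scores (edgeR adjusted p = 0.0744). Of all genes 1.83% were called in the trend, 1.05% with a negative and 0.779% with a positive slope. Of the 8 genes, 4 had an unadjusted p under 0.05 in the trend, where 16.8% of all genes did. Kif5a at -0.06 per allele (edgeR adjusted p = 0.156) and Tuba4a at -0.04 per allele (edgeR adjusted p = 0.150) were not called. Set against the midpoint of homozygotes and wild type, heterozygotes differed in 0 of the 8 genes by edgeR, DESeq2 or limma voom, and 0% of all genes were called by edgeR. The 1 gene of the 8 with an unadjusted p under 0.05 was Spg11, at 0.08 (95% interval 0.02 to 0.15, edgeR adjusted p = 0.9945), where 3.43% of all genes had such a p. The difference of heterozygotes from the midpoint was -0.0013 for Nek1 on the log2 scale (95% interval -0.06 to 0.06) and 0.03 for Vapb (95% interval -0.02 to 0.08), and neither interval leaves out 0.

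Each gene was also set beside partners listed for it. Among 16 partners, Ccs and Actr1a were called lower in homozygotes than in wild type, and 0 were called higher, where 0.923% of all genes were called lower and 0.641% higher. The partners were chosen with earlier results of these data known, so the shares are given for scale and carry no test. Ccs codes for the copper chaperone that loads Sod1, and Actr1a for Arp1, the actin-related protein that forms the filament of dynactin. For Ccs, the lowest, median and highest levels were 10.38, 11.01 and 12.42 CPM in homozygotes, 11.89, 12.6 and 13.63 CPM in heterozygotes and 12.58, 13.28 and 14.4 CPM in wild type. Each homozygous library lay below each wild-type library, as in 0.515% of all genes. The log2 change of Ccs was -0.25 (SE 0.0463, edgeR adjusted p = 0.00765). Sod1 itself differed by -0.02, as given above. For Actr1a, the lowest, median and highest levels were 158.4, 162.7 and 169.9 CPM in homozygotes, 169.2, 171.2 and 181.8 CPM in heterozygotes and 171.1, 180.7 and 184.6 CPM in wild type, again with no overlap between homozygotes and wild type. The log2 change of Actr1a was -0.13 (SE 0.0251, edgeR adjusted p = 0.00708). Both calls were kept with each of the 20 libraries left out in turn, and that of Ccs was lost with 3 surrogate variables (-0.21, edgeR adjusted p = 0.0999) and with the tissue scores as covariates (-0.20, edgeR adjusted p = 0.0861). Ccs lies on chr19:4825366-4839322 and Actr1a on chr19:46376814-46395735, both on the minus strand and neither overlapping another gene in GENCODE M21.

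The other 14 partners were not called. The kinesin-1 heavy chains beside Kif5a had estimates of the same sign, -0.10 for Kif5b (95% interval -0.19 to -0.0046, edgeR adjusted p = 0.284) and -0.06 for Kif5c (95% interval -0.11 to -0.00080, edgeR adjusted p = 0.302). Sod2, the mitochondrial superoxide dismutase, averaged 108 ± 4.20 CPM over the 8 homozygous libraries, 106 ± 3.73 over the 6 heterozygous libraries and 116 ± 6.47 over the 6 wild-type libraries (SD). Its log2 difference was -0.10 in homozygotes (edgeR adjusted p = 0.121) and -0.14 in heterozygotes (edgeR adjusted p = 0.9996). The close paralogues of the remaining genes gave small estimates in homozygotes against wild type: -0.01 for Vapa, 0.0030 for Pfn2, 0.05 for Tuba1a and -0.03 for Tuba1b. Whether Vapb and Vapa, or Tuba4a and Tuba1a, differ in their change was not tested. The coding sequences of Vapb and Vapa are 64.3% identical and share no run longer than 18 bases, and those of Tuba4a and Tuba1a are 84.8% identical with a longest shared run of 29 bases. Dync1h1, the dynein motor subunit, differed by 0.04 and Actb by 0.01. The remaining estimates were -0.04 for Rmdn3, a mitochondrial partner of Vapb, 0.04 for 1810043G02Rik, 0.02 for Nek9, 0.02 for Zfyve26, the partner of spatacsin, and -0.05 for Ap5z1 of the adaptor complex bound by spatacsin.

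**Figure D3:**
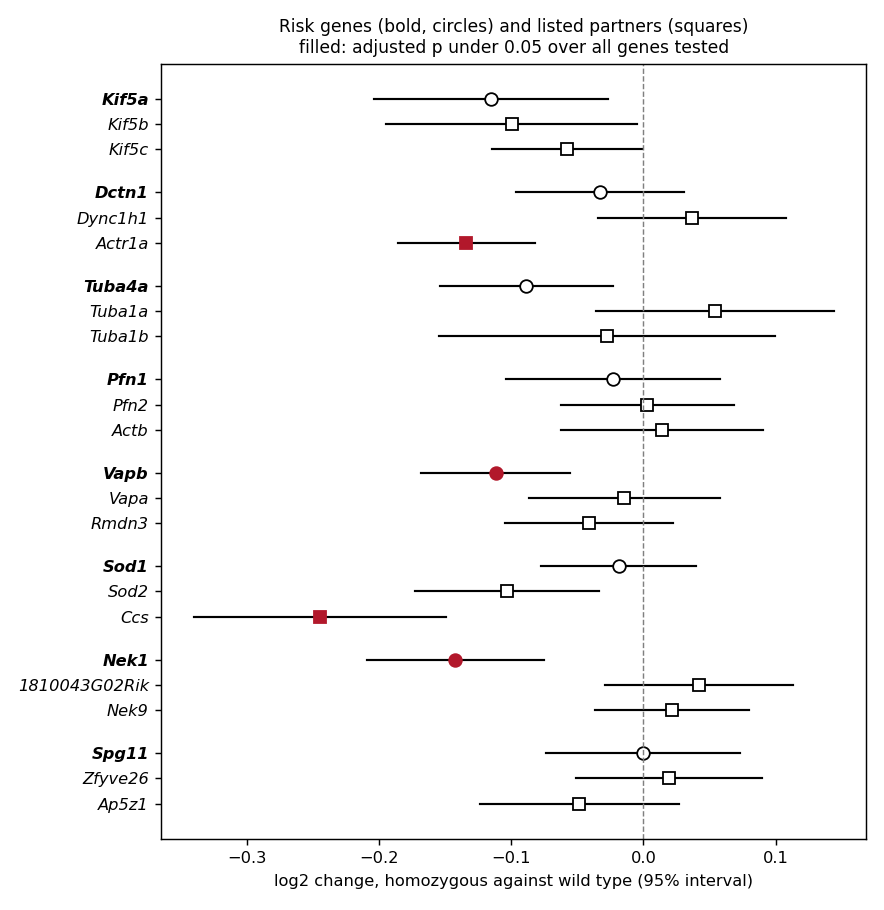
The edgeR log2 change of homozygotes against wild type (x axis) with its 95% interval for the 8 risk genes (circles, bold) and 16 listed partners (squares), filled where the adjusted p over all genes was under 0.05. Filled marks are Actr1a, Vapb, Ccs and Nek1, all below 0, and Sod1 lies at -0.02 beside Ccs at -0.25.

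Wider lists for the same processes, with the 8 genes left out, held 222 distinct genes tested. In homozygotes against wild type 1 was called higher and 3 lower by edgeR, 5 were called by DESeq2 and 4 by limma voom, and 32 had an unadjusted p under 0.05, where 1.56% of all genes were called by edgeR and 16.1% had such a p. The counts over the lists are near these shares. The lists had a median log2 change of -0.0099 against 0.0013 over all genes. The called genes were Actr1a, Ccs, Tardbp (higher) and Nefh, the heavy neurofilament subunit. Of 27 dynein and dynactin genes, 1 was called, Actr1a, and the median was -0.02. Of 12 kinesin-1 heavy chain, light chain and cargo adaptor genes, 0 were called by edgeR or limma voom, 6 had an unadjusted p under 0.05 (16.1% of all genes), 11 of 12 estimates were negative (49.44% of all genes) and the median was -0.06. DESeq2 called 1 of them, Rhot2, a mitochondrial GTPase that links mitochondria to motors, at an edgeR estimate of -0.14 (edgeR adjusted p = 0.0680). Rhot2 is named because it was that 1 call, after its values were seen.

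The lists for tubulin, actin and VAP contact sites held no called gene. Of 20 genes of tubulin and its folding and modification, 0 were called by edgeR, DESeq2 or limma voom, with 2 at an unadjusted p under 0.05, 12 of 20 estimates negative and a median of -0.0083. Those 2, named after their values were seen, were Tuba1c at -1.29 with a standard error of 0.482 and Ttbk1 at -0.08. Of 28 actin genes 0 were called by any of these tools, with 2 at an unadjusted p under 0.05, Arpc4 at -0.08 and Diaph1 at -0.08 (also named after their values were seen), 15 of 28 estimates negative and a median of -0.0038. Of 25 genes of VAP contact sites 0 were called by any of these tools, with 4 at an unadjusted p under 0.05, 16 of 25 estimates negative and a median of -0.02. Those 4, named in the same way, were Esyt1 at -0.17, Pitpnm2 at -0.11, Sacm1l at -0.07 and Kcnb2 at 0.15.

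Of 24 antioxidant genes 1 was called, Ccs, by each of the 3 tools, and the median was -0.03. With Ccs, 5 had an unadjusted p under 0.05. The others, named after their values were seen, were Hmox1 at -0.19, Sod2 at -0.10, Srxn1 at -0.07 and Gclc at 0.08. Of 25 tested NEK family and DNA damage genes 0 were called by any of these tools, with 6 at an unadjusted p under 0.05. Those 6 are named after their values were seen. Nek11 was at 0.32, Nek8 at 0.18, Atm at 0.10, Nek4 at 0.08, Trp53bp1 at 0.06 and Nek7 at -0.07. Over this list 9 of 25 estimates were negative and the median was 0.04. Of 29 spastic paraplegia genes 0 were called by any of these tools, with 3 at an unadjusted p under 0.05 and a median of 0.01. Those 3, named after their values were seen, were Spg7 at -0.12, Ap4s1 at -0.10 and Spg21 at 0.09. Of 32 other ALS genes Tardbp was called higher and Nefh lower, and the median was 0.0079. In heterozygotes against wild type 0 of the 222 genes were called by edgeR, DESeq2 or limma voom, with 6 at an unadjusted p under 0.05, where 3.19% of all genes had one. In homozygotes against heterozygotes 0 were called by edgeR or limma voom and 2 by DESeq2, which were Ccs and Nefh, with 26 at an unadjusted p under 0.05, where 11% of all genes had one.

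Levels were compared between genes per kb of representative transcript. Kif5a was the highest of the 8, at 675 CPM per kb in homozygotes, 730 in heterozygotes and 731 in wild type. Spg11 was the lowest, at 3.79 CPM per kb in homozygotes, 4.02 in heterozygotes and 3.79 in wild type. Between them came Sod1 (214, 215 and 217 CPM per kb in homozygotes, heterozygotes and wild type), Tuba4a (206, 210 and 219), Dctn1 (95.7, 96.3 and 98.0), Pfn1 (90.8, 91.7 and 92.3), Vapb (17.0, 18.1 and 18.4) and Nek1 (10.9, 11.5 and 12.1). Sod1 and Tuba4a differed by less than the SD of Tuba4a in heterozygotes and wild type. In homozygotes Sod1 exceeded Tuba4a by more than either SD (6.53 and 6.25 CPM per kb). Dctn1 and Pfn1 differed by less than the SD of Pfn1 in homozygotes and heterozygotes. In wild type Dctn1 exceeded Pfn1 by more than either SD (0.714 and 2.99 CPM per kb). These neighbours are thus not ordered across the genotypes, and their order was not tested. The order also depends on the length used. Per kb of all annotated exon bases Sod1 stood at 34.6, 34.8 and 35.0 CPM per kb in homozygotes, heterozygotes and wild type, below Dctn1 at 63.1, 63.5 and 64.6.

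**Figure D4:**
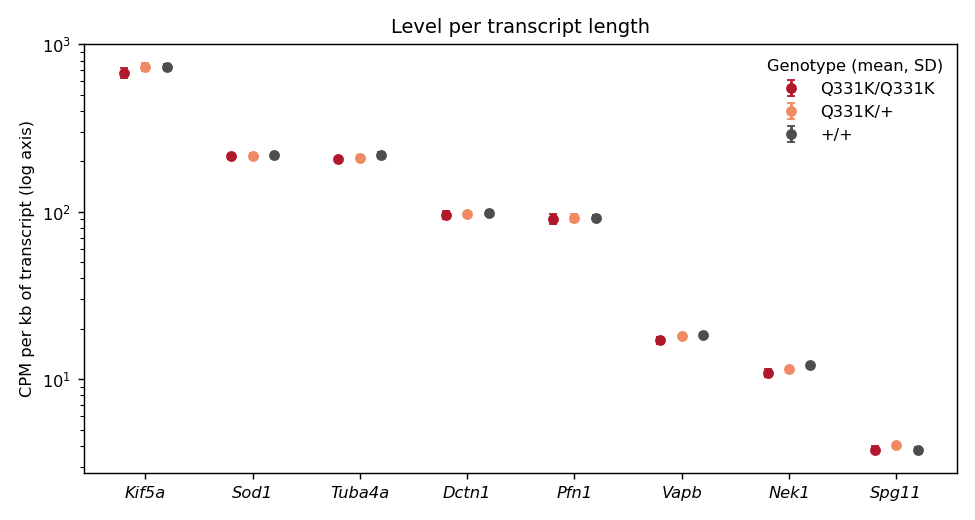
Mean level with SD in CPM per kb of representative transcript (log y axis) for the 8 genes in homozygotes, heterozygotes and wild type. Kif5a at 675 to 731 CPM per kb lies above Spg11 at 3.79 to 4.02, and for every gene the genotypes lie close together on this scale.

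For the called genes, the named genes whose pattern over the 20 libraries was most alike were found by the root mean square difference of z-scored log2 CPM, in which 0 is an identical pattern. For Nek1 these were Ctnnal1 at 0.606, Cryzl1 at 0.628 and Ifrd1 at 0.674, where the median over 14212 genes was 1.41. For Vapb they were Acad8 at 0.566, Rps15a at 0.568 and Actr1a at 0.576, where the median was 1.42. Acad8, Rps15a and Actr1a were each called lower in homozygotes than in wild type (edgeR adjusted p = 0.000395, 0.03445 and 0.00708). Cryzl1 and Ifrd1 were also called lower (edgeR adjusted p = 0.0428 and 0.02025), and Ctnnal1 was not called (edgeR adjusted p = 0.143). The genotype difference is part of the likeness, so Actr1a standing near Vapb is not separate from its own call. These likenesses describe 20 libraries that share genotype and preparation, and they carry no test.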

How the data were processed

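RNA of frontal cortex was analysed in 8 homozygous, 6 heterozygous and 6 wild-type libraries, with the genotypes taken from the labels. The kit selects polyadenylated RNA and keeps strand, per the labels' protocols. Trim Galore 0.4.3, HISAT2 2.0.5 and GRCm38 are named in the submitters' processing notes. What program, annotation and strand setting did the counting is not given in the sources used here. The authors deposited raw counts, whole numbers with no normalisation, in a table of 25965 rows, and the 56 rows with no gene identifier were kept.

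edgeR 4.0.16 (R 4.3.3) was run with TMM scaling, filterByExpr (16690 genes left) and the robust quasi-likelihood test on the 20 libraries together. Calls needed p under 0.05 after Benjamini-Hochberg adjustment over every gene tested. CPM values carry TMM factors, and log2 changes with their 95% intervals are edgeR's. The steps were tested on simulated data. Of 25909 identifiers, 24990 were found in GENCODE M21, from which the lengths, overlaps and sequences given here were taken. The representative transcript was that with the longest in-frame coding region, then the longest. Rmdn3, Ap5z1 and Diaph1 stand in the table under older names and were matched by identifier.

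The 8 genes, their 16 partners and the lists were chosen with earlier results of these data known. Besides these and Tardbp, the rule names list genes called in a pairwise comparison or the trend and the 3 genes most like each called gene. The alternatives tried were DESeq2 1.42.0 as the tool or for its size factors, filtering at 1 CPM in 6 libraries or not at all, blocking on replicate number, adding 3 surrogate variables (sva 3.50.0), limma 3.58.1 voom with quality weights, fitting the compared genotypes alone, leaving out each library, leaving out the 4 with an ependymal score over 0.5, and tissue scores as covariates. These were applied to Actr1a and Ccs after their values were seen.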

Additional observations from a re-analysis of the deposited data

How the results depend on the processing

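In homozygotes against wild type the 2 called genes of the 8 became 1 with the replicate block (Nek1), 1 with 3 surrogate variables (Vapb), 1 in the fit of these genotypes alone (Nek1), 0 with the tissue scores and 0 to 2 with a library left out, and 3 without the libraries of high ependymal score, the addition being Kif5a. In the trend the 2 became 1 with the block (Nek1), 1 with surrogate variables (Vapb), 1 without those libraries (Nek1), 0 with the tissue scores and 1 to 2 with a library left out. The other comparisons gave 0 under each alternative. The estimates ran from -0.16 to -0.13 for Nek1 and from -0.16 to -0.10 for Vapb in homozygotes against wild type. The causes of these changes were not tested.

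Correlations showed little pairing by replicate number: 1 of 18 pairs correlated above 0.1 and 2 of 20 libraries correlated best with their own number. Low correlations cannot show that the numbers mark no shared preparation. With the replicate block, Vapb stood at -0.10 (edgeR adjusted p = 0.0633).

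Estimates near 0 changed sign, with no call. In homozygotes against wild type, Dctn1 was 0.0014 without the high-ependymal libraries, and Spg11 was 0.0017 with the 1 CPM filter, 0.0055 with the block, 0.00097 in the 2-genotype fit and 0.011 without those libraries. In heterozygotes against wild type, Sod1 was 0.0057 without them and Kif5a 0.016 with voom. In homozygotes against heterozygotes, Dctn1 was 0.0038 with surrogate variables, 0.0097 with voom, 0.023 without them and 0.0069 with tissue scores. In the trend, Dctn1 was 6.6e-05 without them and Spg11 0.0028 with the block, 0.0047 with surrogate variables, 0.0074 without them and 0.0014 with tissue scores. Against the midpoint, Sod1 was 0.0091 with surrogate variables, 0.016 without them and 0.0097 with tissue scores, Nek1 0.015 and Pfn1 -0.0057 with voom, and Dctn1 0.0041 with the block.

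With a library left out in turn, these estimates crossed 0 and ran as follows. In homozygotes against wild type, Pfn1 ran from -0.036 to 0.0047 and Spg11 from -0.020 to 0.017. In heterozygotes against wild type, Sod1 ran from -0.024 to 0.0082, Kif5a from -0.020 to 0.022 and Pfn1 from -0.034 to 0.0048. In homozygotes against heterozygotes, Sod1 ran from -0.026 to 0.0054, Dctn1 from -0.021 to 0.013 and Pfn1 from -0.028 to 0.014. In the trend, Pfn1 ran from -0.018 to 0.0026 and Spg11 from -0.012 to 0.0051. Against the midpoint, Sod1 ran from -0.015 to 0.017, Nek1 from -0.012 to 0.010 and Pfn1 from -0.023 to 0.016.

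Over all genes, the 261 calls of homozygotes against wild type became 647 with DESeq2, 102 with surrogate variables, 170 with tissue scores and 115 to 314 with a library left out. The 306 calls of the trend became 696, 99, 122 and 159 to 436, and 193 without the high-ependymal libraries. The 18 of homozygotes against heterozygotes became 103 with DESeq2, 40 with voom, 11 with no filter, 1 with surrogate variables and 5 to 31 with a library left out. At these depths each of the 8 genes had at least 1944 counts in every library, and counting error is part of the spread given.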

Other observations

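Homozygous replicate 6 stood at an end of its group for more of the 8 genes than the other homozygous libraries did. It was the lowest homozygote for 4 of them, Sod1 (130.5 CPM), Vapb (112.8 CPM), Pfn1 (67.61 CPM) and Tuba4a (553.3 CPM), and the highest for 2, Nek1 (61.48 CPM) and Spg11 (31.87 CPM). Each of the other 7 homozygous libraries was an extreme for at most 3 of the 8 genes. By Dixon's test at the 95% level, 0 of the 24 groups formed by the 8 genes and 3 genotypes held an outlying library. Without homozygous replicate 6 the log2 difference of Pfn1 in homozygotes against wild type was 0.0047.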
